A study of Rattus norvegicus with 60 samples.

Results

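The comparison was of kidney outer medulla from wild-type Dahl salt-sensitive rats (SS) after 7 days on a 4.0% NaCl diet (HS7) with SS outer medulla under control conditions (LS). Its members were the 10 libraries whose titles carry these group names, 5 at LS and 5 at HS7, out of 60 libraries in the series. The other 50 came from cortex of both groups, from SS rats after 21 days of the diet (HS21), and from both tissues of a NOX4 knockout line derived from SS (NOX4) at LS, HS7 and HS21, with 5 libraries in each of 12 groups. Both compared groups carry the intact Nox4 gene and differ in diet. The labels give no sex, age, salt content of the control diet or number of animals. Each p-value thus measures a spread between libraries, which may be in part technical. For the diet comparison this spread was estimated over all 30 outer medulla libraries, 20 of them outside the comparison.

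The outer medulla lies between cortex and inner medulla and holds the medullary thick ascending limb, the straight last segment (S3) of the proximal tubule, the outer medullary collecting duct and the bundles of vasa recta. The thick ascending limb takes up sodium chloride through the cotransporter NKCC2, encoded by Slc12a1, works at low oxygen and produces reactive oxygen species. Dahl SS rats retain salt, become hypertensive on a high-salt diet and develop tubular injury and casts in the outer medulla. NOX4, an NADPH oxidase that makes hydrogen peroxide, is abundant in proximal tubule.

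The libraries of the 2 groups did not form 2 even sets. LS libraries held 12.1 M to 18.8 M counts (median 14 M) and HS7 libraries 11.5 M to 22.1 M counts (median 14.3 M). Reduced by random draw to 10 M counts each, 6 of the 10 libraries held 14590 to 16125 genes with a count, whereas the other 4 held 17828 to 18385 and the 20 remaining outer medulla libraries 17593 to 18097. These 6 are called low-complexity libraries and were LS replicates 2, 3 and 5 and HS7 replicates 1, 3 and 4, that is 3 per group. The share of counts from mitochondrial genes was 11.2% to 14% at LS and 9.06% to 13.5% at HS7. No 2 libraries of a group matched each other within sampling noise, with a lowest chi-square per degree of freedom of 24.8 among LS pairs and 16.4 among HS7 pairs.

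Tissue make-up, read from marker genes, also differed between libraries. A marker score is the mean log2 CPM (counts scaled to library size) of the genes of a list. The score of 14 markers of the first proximal tubule segments (S1 and S2), which lie in cortex, was 3.68, 4.4, 1.77, 4.33 and 3.04 in LS replicates 1 to 5. In HS7 replicates 1 to 5 it was 3.67, 3.26, 8.57, 6.15 and 4.85. HS7 replicates 3, 4 and 5 stood above every LS library, and HS7 replicates 1 and 2 lay within the LS range. The S3 score was 4.33 to 6.27 at LS and 4.83 to 8 at HS7, again highest in HS7 replicates 3 and 4. The podocyte score was highest in HS7 replicate 3 (4.43, against 3.02 to 3.67 at LS). In bulk tissue, fewer cells of a type and less RNA per cell cannot be told apart.

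**Figure D1:**
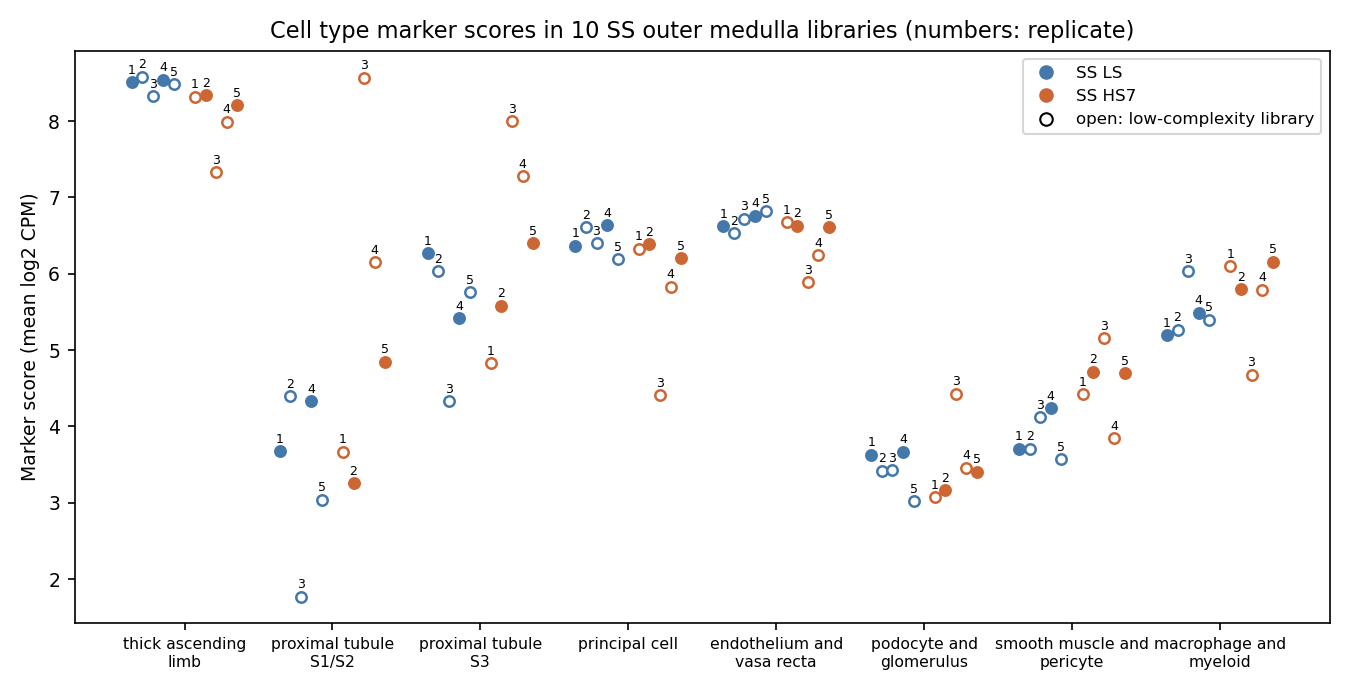
Marker score (mean log2 CPM of a list, vertical axis) for 8 cell type lists in each of the 10 libraries, LS in blue and HS7 in orange, numbered by replicate, with open points for low-complexity libraries. HS7 replicates 3 and 4 have the highest proximal tubule scores, and HS7 replicate 3 has the lowest thick ascending limb (7.33), principal cell (4.41) and endothelial (5.89) scores.

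Genes that define the outer medulla, those of the thick ascending limb, had high levels in the LS libraries. In the deposited FPKM values, fragment counts divided by gene length and library size, which can be compared between genes, LS libraries had 4700 ± 735 (SD, n = 5) for Umod, the uromodulin gene of the thick ascending limb, and 1030 ± 65.2 for Slc12a1. The S3 amino acid transporter gene Slc7a13 had 414 ± 212 and the S1 and S2 phosphate transporter gene Slc34a1 48.9 ± 29.5 FPKM. At HS7 Slc34a1 was at 364 ± 515 FPKM. The SD there exceeded the mean: HS7 replicate 3 had 3505 CPM and replicate 4 had 1017, against 73.4 to 405 CPM in the other 3.

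Of 15799 genes tested, 374 (2.37%) differed between HS7 and LS at an adjusted p under 0.05 by edgeR's quasi-likelihood test with Benjamini-Hochberg adjustment. Of these 245 (1.55%) were higher and 129 (0.817%) lower at HS7. At an unadjusted p under 0.05 there were 3451. In 319 genes (2.02%) all 5 libraries of one group lay above all 5 of the other, and 66 of the higher and 63 of the lower called genes were among them. The median log2 fold change of all tested genes was 0.00338. Among the 245 higher genes, 66 had no count in at least 2 LS libraries, and 46 of those 66 had none in any of the 3 low-complexity LS libraries.

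The count of called genes depended strongly on which libraries were in the fit. Without HS7 replicate 3 it was 70 and without HS7 replicate 4 it was 77. Without LS replicate 1, 2, 3, 4 or 5 it was 750, 227, 133, 122 or 168, and without HS7 replicate 1, 2 or 5 it was 1313, 1456 or 449. With only the low-complexity libraries compared (3 against 3) there were 1927 calls. The other 4 libraries (2 against 2) gave none, with 1305 genes at an unadjusted p under 0.05, in edgeR, the 1 tool used on them. Both fits kept the 20 outer medulla libraries outside the comparison, which entered the estimate of the spread. With HS7 replicates 3 and 4 both left out, 5 genes were called. With only the 10 compared libraries in the fit, 1 gene was called and 1439 had an unadjusted p under 0.05. An adjusted p under 0.05 was given for 62 genes (33 higher, 29 lower) in the authors' deposited table, and 42 of these were among the 374. Leaving out HS7 replicates 3 and 4 together, comparing only the low-complexity libraries, and using low complexity as a covariate were choices made after seeing the data.

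**Figure D2:**
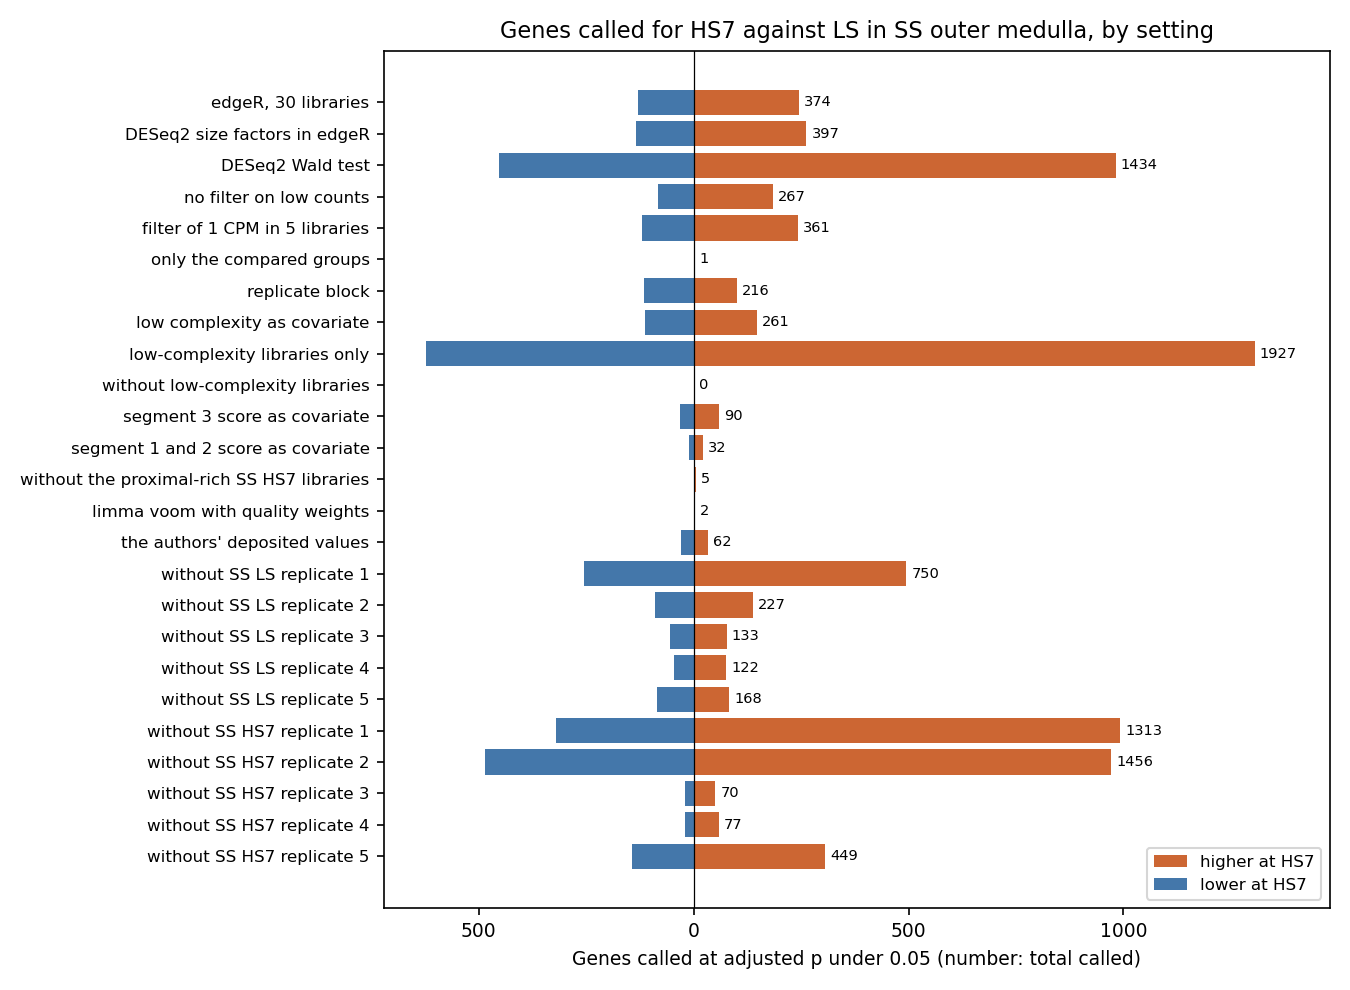
Number of genes called higher (orange, to the right) and lower (blue, to the left) at HS7 under each fit (vertical axis), with the total beside each bar. The total runs from 0 without the low-complexity libraries to 1927 with only these compared, and is 374 in the edgeR fit of 30 libraries. The fits with 0 and 1927 calls kept the 20 outer medulla libraries outside the comparison.

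A set of 33 genes (23 higher, 10 lower) was called whichever of the 10 libraries was left out. With low complexity as a covariate all 33 had an adjusted p under 0.05, with the S1 and S2 score as a covariate 20, and without HS7 replicates 3 and 4 only 3, which were Serpinb1a, Ankh and Cnn1. Fold changes within the low-complexity libraries and within the other 4 libraries are given beside the values of single genes. Within the other 4 no gene was called. The genes were called from the same 10 libraries, so agreement between these values is not separate support.

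Serpinb1a and Ankh had the smallest p-values of the comparison. Serpinb1a (ENSRNOG00000016581; chromosome 17, 32904119 to 32911495, plus strand) encodes an inhibitor of neutrophil serine proteases. Its levels were 21.4, 29.5, 22.9, 22.3 and 25.6 CPM in LS replicates 1 to 5 and 41.3, 42.2, 71, 51.9 and 50.2 CPM at HS7. All HS7 libraries lay above all LS libraries, by a log2 fold change of 1.08 ± 0.15 (SE; adjusted p = 0.00143 by edgeR). The value was 1.08 within the low-complexity libraries and 1.08 within the others. Ankh (ENSRNOG00000010960; chromosome 2, 80131563 to 80256954, plus strand) encodes a membrane protein that releases ATP and citrate and so supplies pyrophosphate, which holds back mineral deposition. It had 19.2, 15.3, 21.8, 20.5 and 24.3 CPM at LS and 38.5, 34.3, 44.4, 40.5 and 41.7 CPM at HS7, again with no overlap. Its log2 fold change was 0.98 ± 0.15 (adjusted p = 0.00249 by edgeR), 1.01 within the low-complexity libraries and 0.94 within the others. Both genes were called in 22 of 24 alternatives, the exceptions being the fit of the 2 compared groups alone and the fit without low-complexity libraries. In the authors' deposited table their adjusted p-values were 0.000226 and 1.4e-05.

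The sequence before the annotated start is shown for these 2 genes and for the injury gene Havcr1, since they rose in every HS7 library and their promoters differ in type. Each run is the 250 bases before the start in RefSeq's annotation of GRCr8, read 5′ to 3′ on the gene's strand, a build that may differ from that of the deposited positions. Capitals mark the letters of a TATA box (TATAAA) in Serpinb1a and of a GC box (GGGCGG or its reverse complement CCGCCC) in Ankh.
Serpinb1a, chr17:31799196-31799445, plus strand: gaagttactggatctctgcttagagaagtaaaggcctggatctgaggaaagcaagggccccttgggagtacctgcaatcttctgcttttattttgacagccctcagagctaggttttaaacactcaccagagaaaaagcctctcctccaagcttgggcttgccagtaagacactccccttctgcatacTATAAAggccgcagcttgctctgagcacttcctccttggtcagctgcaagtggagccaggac
Ankh, chr2:79883201-79883450, plus strand: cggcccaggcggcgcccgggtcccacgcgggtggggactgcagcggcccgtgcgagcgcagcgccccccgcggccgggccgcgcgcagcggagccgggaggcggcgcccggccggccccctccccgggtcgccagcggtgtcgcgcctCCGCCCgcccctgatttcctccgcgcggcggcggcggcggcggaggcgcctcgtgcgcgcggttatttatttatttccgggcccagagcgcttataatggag
Havcr1, chr10:31629528-31629777, plus strand: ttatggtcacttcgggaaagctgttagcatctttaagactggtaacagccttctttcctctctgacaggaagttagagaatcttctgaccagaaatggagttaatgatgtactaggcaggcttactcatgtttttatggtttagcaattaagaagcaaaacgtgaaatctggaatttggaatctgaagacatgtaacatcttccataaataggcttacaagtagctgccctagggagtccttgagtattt
The Serpinb1a run held 1 TATAAA, beginning 62 bases before the start, 1 CpG and a GC share of 50.4%. The Ankh run held 1 GC box, 102 bases before the start, 45 CpGs and a GC share of 79.2%. The Havcr1 run held neither motif on either strand and 2 CpGs, with a GC share of 39.2%. Across 33469 rat promoters of the same length, 12.9% held TATAAA and 30.5% the GC box on either strand, and the median was 5 CpGs. A match is a run of letters and says nothing of binding.

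Of 29 tested genes of tubular injury and repair, 2 rose and none fell, where 1.55% of all tested genes rose. The median log2 fold change of the list was 0.16. Havcr1 (ENSRNOG00000007243; chromosome 10, 31813814 to 31848379, plus strand) encodes KIM-1, a membrane protein that proximal tubule cells put out on injury. It had 10.6, 5.42, 6.28, 5.47 and 4.44 CPM at LS and 21.4, 30.2, 36, 37.9 and 26.8 CPM at HS7, and every HS7 library lay above every LS library. The log2 fold change was 2.23 ± 0.48 (adjusted p = 0.0246 by edgeR), 2.56 within the low-complexity libraries and 1.82 within the others. The highest Havcr1 levels were in HS7 replicates 3 and 4, the libraries with the highest proximal tubule scores. The 3 HS7 libraries without them were also above LS, and with both left out the log2 fold change was 2.01 (adjusted p = 0.115). The keratin gene Krt19 rose by 1.14 ± 0.28 (adjusted p = 0.0292), but it had 62.5 and 36.4 CPM in HS7 replicates 3 and 4 against 18.2 to 23.5 in the others and 10.2 to 17.7 at LS, and was not called without HS7 replicate 3. Lcn2, which encodes lipocalin 2, had 0.23 ± 0.30 (adjusted p = 0.711) and the osteopontin gene Spp1 0.11 ± 0.23 (0.82).

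**Figure D3:**
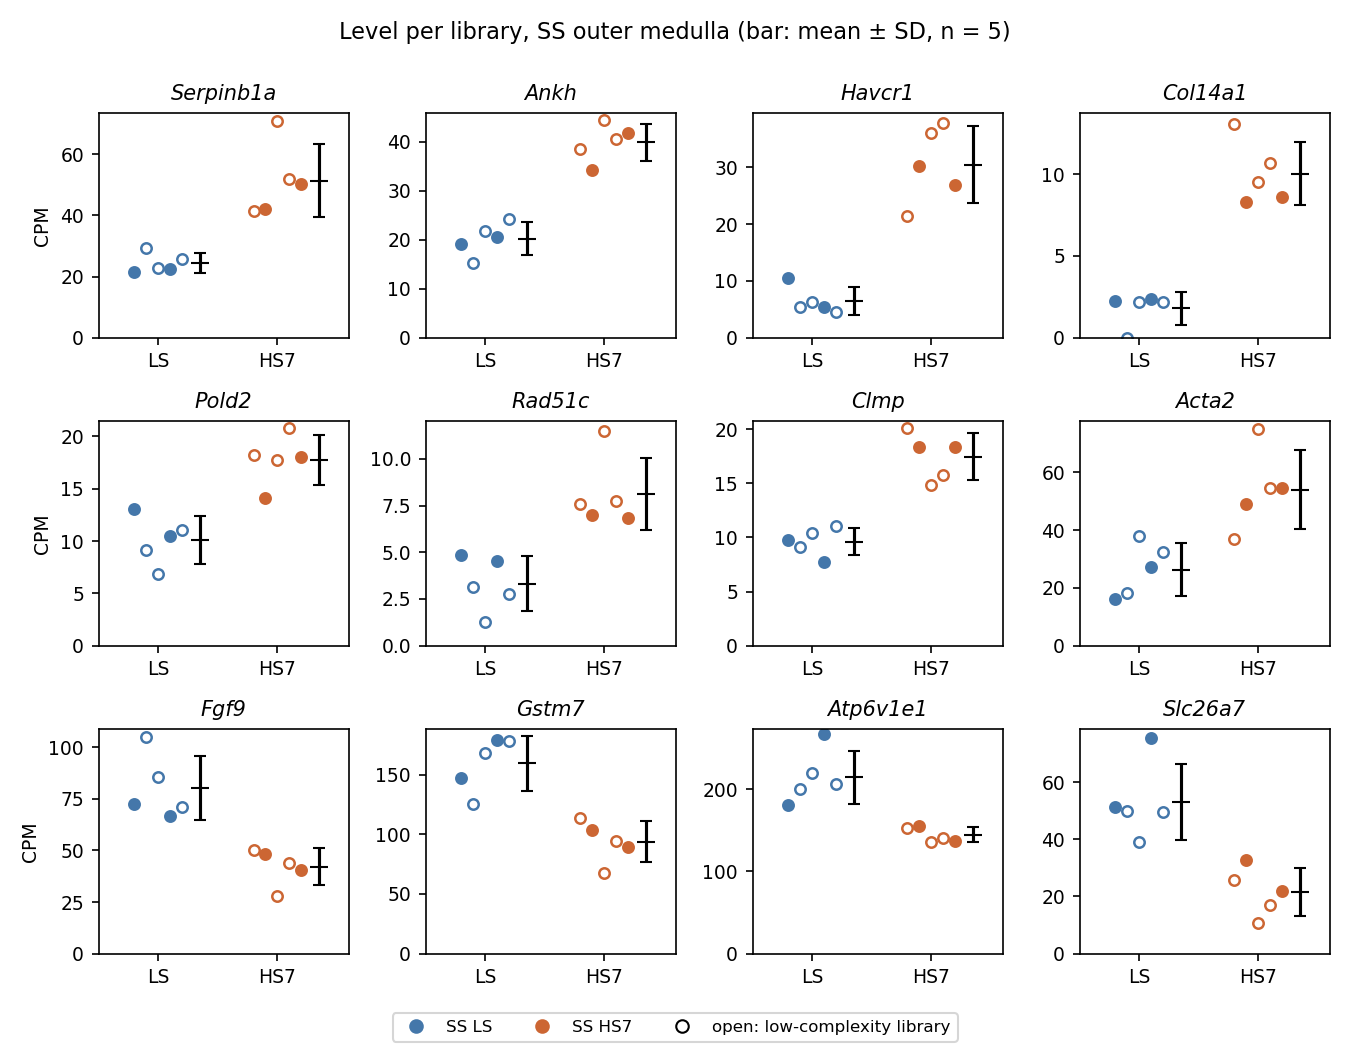
Level in CPM (linear axis from 0) of 12 genes in the 5 LS and 5 HS7 libraries, open points for low-complexity libraries, with mean ± SD beside each group. In every panel but Acta2 the 2 groups do not overlap, and the lowest Acta2 level at HS7 (36.9 CPM) lies under the highest at LS (37.8 CPM).

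Where 1.55% of all tested genes rose, 3 of 16 genes of the smooth muscle and pericyte list did. None of the list fell, and its median was -0.02. The 3 were the contractile genes Cnn1 (calponin), Actg2 (enteric smooth muscle actin) and Acta2 (vascular smooth muscle actin). Cnn1 (ENSRNOG00000027736; chromosome 8, 23113048 to 23121761, plus strand) had no count in any LS library and 1.18, 1.13, 17.5, 0.64 and 2.52 CPM in HS7 replicates 1 to 5 (adjusted p = 0.00276 by edgeR). Against a floor of 3 counts over the LS group, its pooled level of 4.34 CPM at HS7 was at least 107-fold higher, and at least 37.9-fold higher without HS7 replicate 3. It was the only called gene of the list without that replicate. Acta2 had 16, 18.1, 37.8, 27.1 and 32.4 CPM at LS and 36.9, 48.9, 74.8, 54.6 and 54.6 CPM at HS7, and rose by 1.04 ± 0.27 (adjusted p = 0.0408), with 0.91 and 1.27 within the low-complexity and the other libraries. Actg2 had 24.1 CPM in HS7 replicate 3, 1.05 and 1.33 CPM in replicates 2 and 5 and no count in replicates 1 and 4 (adjusted p = 0.0287). The adjusted p of Actg2 was 0.235 without HS7 replicate 3, and it was not called without LS replicate 2, 3 or 5 either. Acta2 was called in 4 of the 10 fits that left out 1 library, with an adjusted p of 0.105 without HS7 replicate 3. The pericyte genes Pdgfrb, Rgs5 and Cspg4 had log2 fold changes of -0.16, -0.06 and -0.13 and were not called.

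Of 49 extracellular matrix and fibrosis genes, 1 rose and none fell (median 0.11), where 1.55% of all tested genes rose. Col14a1 (ENSRNOG00000026415; chromosome 7, 95074236 to 95273298, plus strand) encodes a collagen that sits on the surface of collagen fibrils. It had 2.25, 0, 2.19, 2.35 and 2.15 CPM at LS and 13.1, 8.3, 9.5, 10.7 and 8.6 CPM at HS7, a log2 fold change of 2.47 ± 0.54 (adjusted p = 0.0254 by edgeR). The groups were well apart in every library, and the value was 2.92 within the low-complexity libraries and 1.88 within the others. Col1a1 had 0.77 ± 0.33 (adjusted p = 0.165) and the fibronectin gene Fn1 0.11 ± 0.30 (0.868), each with its lowest level of all 10 libraries in HS7 replicate 3. Without HS7 replicates 3 and 4 the list had 44 of 49 log2 fold changes above 0 with a median of 0.35, and none was called. In that fit 8014 of all 16222 tested genes were above 0.

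Pold2, which encodes the accessory subunit of DNA polymerase delta, had 13.1, 9.14, 6.86, 10.4 and 11 CPM at LS and 18.2, 14.1, 17.7, 20.8 and 18.1 CPM at HS7. It rose by 0.81 ± 0.14 (adjusted p = 0.00648 by edgeR), with no overlap of the groups. The recombination gene Rad51c had 1.24 to 4.87 CPM at LS and 6.85 to 11.5 CPM at HS7, and rose by 1.29 ± 0.24 (adjusted p = 0.0148). Both were larger within the low-complexity libraries (1.07 and 1.90) than within the others (0.45 and 0.56). The thymidine kinase gene Tk1, which serves the salvage of thymidine in S phase, rose by 0.82 ± 0.18 (adjusted p = 0.0246), with 11.9 to 21.4 CPM at LS and 22.7 to 37.4 CPM at HS7. Rad51c and Tk1 were chosen after their values were seen, and Tk1 was called in 8 of the 10 fits that left out 1 library. Of all 15799 tested genes 1.55% rose and 7969 had a log2 fold change above 0. Of 33 cell cycle genes 2 rose and none fell, with 28 log2 fold changes above 0 and a median of 0.33. The 2 were the spindle genes Aurka (1.00 ± 0.22, adjusted p = 0.0263) and Kif11 (1.53 ± 0.39, adjusted p = 0.0396). Kif11 stood at 82 and 43.5 CPM in HS7 replicates 3 and 4 and at 17.3 to 23.6 CPM in the other HS7 libraries, against 5.83 to 16.2 CPM at LS. Aurka was called in 8 and Kif11 in 4 of the 10 fits that left out 1 library, and neither without HS7 replicate 3 (adjusted p = 0.0763 and 0.157). Mki67 had 0.25 ± 0.27 (adjusted p = 0.626). Without HS7 replicates 3 and 4 the list had 32 of 33 values above 0, a median of 0.48 and no call. In that fit 8014 of all 16222 tested genes were above 0.

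Clmp, Ryr1 and Hlf were called higher in each fit that left out 1 library. The gene Clmp, of a cell adhesion protein of epithelial junctions, had 7.75 to 11 CPM at LS and 14.9 to 20.1 CPM at HS7 and rose by 0.86 ± 0.17 (adjusted p = 0.0161 by edgeR), with 0.73 and 1.07 within the low-complexity and other libraries. Ryr1, a calcium release channel gene, had 1.1 to 4.04 CPM at LS and 5.73 to 11.8 CPM at HS7 (1.55 ± 0.27, adjusted p = 0.00648), with 2.11 and 0.82. Hlf, a clock output transcription factor gene, had 0.657 to 2.2 CPM at LS and 2.9 to 17.3 CPM at HS7 (2.69 ± 0.52, adjusted p = 0.0161), with 3.77 and 0.92. The last 2 were thus larger in the libraries of low complexity, and Hlf was highest in HS7 replicates 3 and 4 (17.3 and 16.9 CPM). It was the 1 called gene of 18 in the circadian clock list (median 0.20), where 2.37% of all tested genes were called.

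**Figure D4:**
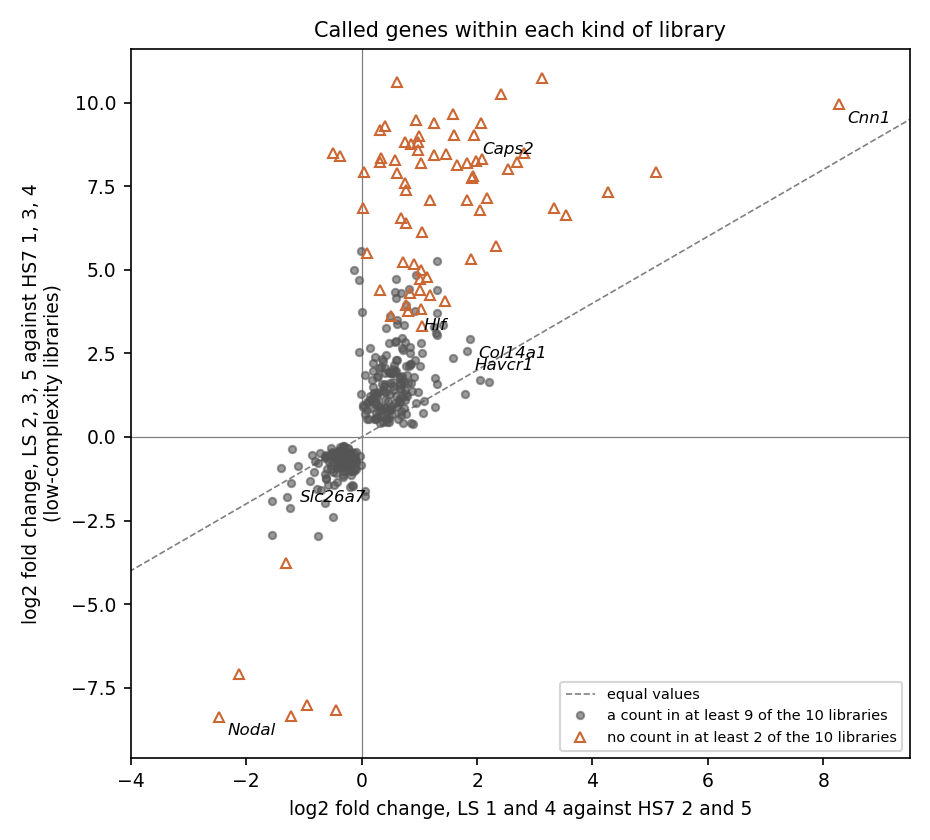
Log2 fold change of the 374 called genes within the low-complexity libraries (3 against 3, vertical axis) against that within the other libraries (2 against 2, horizontal axis), with triangles for genes that lacked a count in at least 2 of the 10 libraries and a dashed line for equal values. The sign is the same in both for 364 genes, and 345 have the larger size within the low-complexity libraries. The genes were called from these same libraries, which favours equal signs, and the share among all tested genes was not counted.

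Slc26a7, Atp6v1e1, Fgf9 and Gstm7 were lower in every HS7 library than in any LS library, and belong to the 10 lower genes called in each fit that left out 1 library. Slc26a7 (ENSRNOG00000006096; chromosome 5, 27986663 to 28164326, minus strand), an anion exchanger gene of acid-secreting intercalated cells in the outer medullary collecting duct, had 51.5, 50, 39.1, 75.3 and 49.7 CPM at LS and 25.6, 32.7, 10.8, 17.1 and 21.8 CPM at HS7. Its log2 fold change was -1.30 ± 0.26 (adjusted p = 0.0161 by edgeR), with -1.37 within the low-complexity libraries and -1.22 within the others. It was the 1 called gene of 15 intercalated cell markers, where 0.817% of all tested genes fell. The median of these markers was -0.43, and their score was 4.72 to 5.14 at LS and 4.52 to 5.06 at HS7. Atp6v1e1, which encodes a subunit of the proton-pumping V-ATPase, had 181 to 267 CPM at LS and 136 to 155 CPM at HS7 (-0.57 ± 0.11, adjusted p = 0.0158). Fgf9, a growth factor gene, had 66.8 to 105 CPM at LS and 27.8 to 50.1 CPM at HS7 (-0.93 ± 0.17, adjusted p = 0.0122). Gstm7, a glutathione transferase gene, had 125 to 179 CPM at LS and 67.6 to 114 CPM at HS7 (-0.77 ± 0.14, adjusted p = 0.0148). Within the low-complexity and the other libraries the values were -0.54 and -0.61 for Atp6v1e1, -1.10 and -0.64 for Fgf9, and -0.77 and -0.75 for Gstm7. Glutathione transferases are a family of similar genes, and how reads shared between copies were counted is not given in the sources used here. Atp6v1e1, Fgf9, Gstm7 and Clmp were chosen after their values were seen.

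No gene of sodium chloride transport by the thick ascending limb was called. Of 20 genes of transport and its control none passed, 1 had a log2 fold change above 0, and the median was -0.28. With 2.37% of all tested genes called, no call in a list of this size says little. Slc12a1 had 5920, 5825, 5168, 5676 and 6019 CPM at LS and 4734, 5265, 1623, 3415 and 4213 CPM at HS7 (-0.57 ± 0.22, adjusted p = 0.121 by edgeR). HS7 replicate 3 was far the lowest, and HS7 replicate 2 lay within the LS range. The potassium channel gene Kcnj1 had -0.74 ± 0.27 (adjusted p = 0.110) and Umod -0.50 ± 0.32 (0.369). The 15 thick ascending limb markers were all under 0, with a median of -0.30 and no call, and had a score of 8.33 to 8.58 at LS and 7.33 to 8.34 at HS7. Without HS7 replicates 3 and 4 the marker median was -0.28, with 3 of 15 above 0 and none called.

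Other lists of salt and water handling had no called member, where 2.37% of all tested genes were called, a share that amounts to under 1 gene in lists of this size. Of 15 genes of the epithelial sodium channel and the mineralocorticoid response none passed (median -0.33), of 17 genes of osmolytes and hypertonicity none (median -0.29), and of 17 endothelin, nitric oxide and natriuretic peptide genes none (median -0.16). Nfat5, the transcription factor gene of the hypertonic response, had -0.51 ± 0.23 (adjusted p = 0.193 by edgeR), and its lowest level (189 CPM, against 550 to 1011 in the other HS7 libraries) was in HS7 replicate 3. The aldose reductase gene Akr1b1 had -0.47 ± 0.25 (0.273) and the vasopressin-regulated water channel gene Aqp2 -0.29 ± 0.33 (0.65). Of 11 renin-angiotensin genes none was called, and their median of 0.75 was -0.03 without HS7 replicates 3 and 4.

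Among oxidant genes none of 12 in the NADPH oxidase list and none of 32 antioxidant genes was called, with medians of 0.20 and 0.39. Of all tested genes 2.37% were called, so lists this short say little by having no call. Nox4 had 13.2, 11.1, 6.35, 8.89 and 9.29 CPM at LS and 6.46, 9.92, 111, 38.6 and 12.8 CPM at HS7 (1.87 ± 0.60, adjusted p = 0.0744 by edgeR). It followed the order of the proximal tubule score in HS7 replicates 3, 4 and 5, and is itself one of the S1 and S2 markers. The p22phox gene Cyba had 0.25 ± 0.21 (adjusted p = 0.513) and the p47phox gene Ncf1 0.11 ± 0.28 (0.864). Without HS7 replicates 3 and 4 the antioxidant median was -0.10.

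All 14 S1 and S2 markers were above 0 with a median of 2.92, and 1, the dicarboxylate transporter gene Slc13a3, was called. Of all 15799 tested genes 1.55% were called higher and 7969 were above 0. Slc13a3 had 7.76 to 35.6 CPM at LS and 11.2, 11.4, 897, 212 and 48.7 CPM in HS7 replicates 1 to 5 (3.78 ± 1.03, adjusted p = 0.0478 by edgeR). Only HS7 replicates 3, 4 and 5 exceeded LS. The same 3 libraries carried the arachidonic acid epoxygenase gene Cyp2c23 (1078, 249 and 70.7 CPM, against 4.45 to 41.4 CPM at LS) and the cytochrome P450 gene Cyp2e1 (135, 42.8 and 14.4 CPM, against 0.511 to 10.3 CPM at LS). None of these 3 genes was called without HS7 replicate 3. The median of the S1 and S2 markers was 1.15 without HS7 replicate 3, 0.34 without replicates 3 and 4, and 0.13 without the low-complexity libraries. In the last 2 fits none of the 14 was called.

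Other lists with called members had few of them, and 29 of the 48 lists had none. Of all tested genes 1.55% rose and 0.817% fell, and no list was tested as a set. Of 20 eicosanoid genes 2 rose (the epoxygenase genes Cyp2j4 and Cyp2c23), of 24 organic ion and conjugation genes 2 (Abcb1a and Cyp2e1), and of 34 complement and coagulation genes 2 (C4a and F2, the prothrombin gene). Abcb1a, the gene of the efflux pump P-glycoprotein, rose by 1.37 ± 0.28 (adjusted p = 0.0181 by edgeR) but was not called without HS7 replicate 3. Without HS7 replicate 3 none of the eicosanoid, organic ion or complement genes was called. Cyp2j4 had a log2 fold change of 2.07 ± 0.50 (adjusted p = 0.0287), called in 4 of the 10 fits that left out 1 library, with 0.43 within the libraries of higher complexity and 0.77 without HS7 replicates 3 and 4. F2 had 3.83 ± 0.99 (adjusted p = 0.0399), also called in 4, with 0.91 and 1.22. The table holds 2 gene identifiers named C4a, near-identical complement genes whose reads the counting could have split. One had a log2 fold change of 1.49 ± 0.40 (adjusted p = 0.0478) and the other 1.44 ± 0.91 (adjusted p = 0.367), so both values are uncertain. Echs1, an enzyme gene of fatty acid oxidation and the 1 called member of 33 in that list, had 13.2 and 65.2 CPM in HS7 replicates 1 and 4 and 0.806 to 2.45 CPM in the other 3, against 0.657 to 1.31 CPM at LS. Its groups overlapped, and its fold change of 4.16 ± 1.04 (log2, adjusted p = 0.035) was -0.14 within the libraries of higher complexity. In the podocyte list 1 of 12 genes fell, the phospholipase gene Plce1 (-0.72 ± 0.17, adjusted p = 0.0278). It was called in 6 of the 10 fits that left out 1 library, with an adjusted p of 0.0763 without HS7 replicate 3. Of 33 cytokine, chemokine and adhesion genes only the alarmin gene Il33 rose (1.77 ± 0.41, adjusted p = 0.0278), with 288, 156 and 82.5 CPM in HS7 replicates 3, 4 and 5 and 44 and 51.3 in replicates 1 and 2, against 24.7 to 49.4 at LS. Its adjusted p was 0.0983 without HS7 replicate 3. The macrophage and myeloid list had none of 14 called (median 0.27; score 5.2 to 6.03 at LS and 4.68 to 6.16 at HS7).

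In energy metabolism, 2 of 22 genes of pyruvate entry and the tricarboxylic acid cycle fell and none rose. Of all tested genes 0.817% fell. Pdk4, a kinase gene that restrains pyruvate dehydrogenase, had 13.1, 38.2, 18.6, 13.5 and 14.2 CPM at LS and 10.8, 10.2, 8.54, 6.62 and 7.57 CPM at HS7 (-1.16 ± 0.27, adjusted p = 0.0278 by edgeR). Mpc1, a subunit gene of the mitochondrial pyruvate carrier, had 415 to 447 CPM at LS and 267 to 339 CPM at HS7 (-0.49 ± 0.13, adjusted p = 0.0426), and its value was -0.52 in the libraries of higher complexity. Neither gene's groups overlapped, yet Pdk4 was called in 7 and Mpc1 in 3 of the 10 fits that left out 1 library. The lipoprotein lipase gene Lpl, in the adipocyte list, had 111 to 132 CPM at LS and 59 to 99.7 CPM at HS7 (-0.65 ± 0.14, adjusted p = 0.0246). No nuclear gene of respiratory complex I (32 tested, median -0.06) or of complexes II to V (37, -0.04) was called. None of 11 mitochondrially encoded protein genes (-0.08) was called either. As 2.37% of all tested genes were called, lists of this size say little by having no call.

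A mitochondrial ribosomal RNA gene was lower (AY172581.24, ENSRNOG00000043866; mitochondrial genome, 1094 to 2664). It had 729, 742, 644, 834 and 694 CPM at LS and 380, 404, 320, 430 and 322 CPM at HS7, with a wide gap between the groups. The log2 fold change was -0.97 ± 0.18 (adjusted p = 0.0125 by edgeR), -0.88 within the low-complexity libraries and -1.10 within the others. The libraries were made from poly(A) RNA, and how far that selection bears on the count of a ribosomal RNA was not tested. This gene was chosen after its values were seen.

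The immediate early list had 22 of 26 values under 0 with a median of -0.55, and 1 call. Of all 15799 tested genes 2.37% were called and 7969 had a value above 0. Nr4a2, an inducible nuclear receptor gene, had 8.86, 22.8, 76, 21.7 and 13.1 CPM at LS and 8.37, 11.7, 4.68, 14.8 and 7.87 CPM at HS7 (-1.59 ± 0.37, adjusted p = 0.0278 by edgeR). The groups overlapped, LS replicate 3 was the highest, and within the libraries of higher complexity the value was -0.64. The list median was -0.12 without the low-complexity libraries. Of 27 heat shock and endoplasmic reticulum genes, Sdf2l1 rose (0.71 ± 0.17, adjusted p = 0.0292) and Dnajb9 fell (-0.50 ± 0.12, adjusted p = 0.0337), both coding for cofactors of the chaperone BiP. They were called in 6 and 5 of the 10 fits that left out 1 library, with an adjusted p of 0.0818 and 0.0884 without HS7 replicate 3 and of 0.131 and 0.227 in the authors' deposited table.

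The largest fold changes came from genes near the detection limit. The 12 highest among called genes with a mean of at least 1 CPM in either group were Cnn1, Dmrtc1c1, Actg2, Reg3g, Syce1, Chst13, Ildr2, Dnah6, Oxtr, Pfn3, Col9a1 and Aadac, with group means of 0 to 0.659 CPM at LS and 1.2 to 15.3 CPM at HS7. In 11 of the 12 no low-complexity LS library had a count, in 11 the highest library was HS7 replicate 3, and in 8 the groups overlapped. The ciliary dynein gene Dnah6 had 0.105 and 0.142 CPM in LS replicates 1 and 4, none in the others, and 1.47, 0.484, 2, 2.49 and 0.513 CPM at HS7 (adjusted p = 0.0042 by edgeR). Its groups were apart, as were those of Caps2, a calcium-binding protein gene, with 0 to 0.419 CPM at LS and 0.941 to 6.31 CPM at HS7 (adjusted p = 0.0042). The 12 lowest were Nodal, Tnn, Tbx6, Cdh20, Fam71f1, Ak5, Htr2a, 7SK, Ddx43, Kcnn2, Nr4a2 and Mamdc4. Their means were 1.05 to 28.5 CPM at LS and 0.0257 to 9.48 CPM at HS7, in 8 the groups overlapped, and none was called in all fits that left out 1 library. The serotonin receptor gene Htr2a had 3.72 to 14.9 CPM at LS and 0 to 3.47 CPM at HS7 (-2.04 ± 0.51, adjusted p = 0.035), and its adjusted p was 0.0719 without LS replicate 5.

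The same genes were set beside the same diet change in NOX4 outer medulla, which shares no library with the SS comparison. Reads of the targeted gene were still counted there: Nox4 had 3.13 to 10.3 CPM in NOX4 LS and 2.63 to 15.1 CPM in NOX4 HS7 libraries, against 6.35 to 13.2 CPM in SS LS, and whether the counted part lies outside the knockout mutation was not tested. The NOX4 log2 fold changes were 0.49 ± 0.15 for Serpinb1a, 0.18 ± 0.15 for Ankh, 1.76 ± 0.47 for Havcr1, 0.17 ± 0.52 for Col14a1, -0.29 ± 0.17 for Fgf9 and -0.76 ± 0.25 for Slc26a7. Their differences from SS (NOX4 minus SS) were -0.59, -0.80, -2.30, 0.64 and 0.54 for Serpinb1a, Ankh, Col14a1, Fgf9 and Slc26a7, with adjusted p of 0.371, 0.302, 0.339, 0.376 and 0.565 by edgeR's interaction test. For Havcr1 the difference was -0.47 ± 0.65 (adjusted p = 0.807). No gene of 15799 was called for this interaction (0%), with 1676 at an unadjusted p under 0.05 and 13 called by DESeq2. The smallest p-values with a given symbol belonged to Daxx, Smek1, Mamdc4 and Nasp, each at an adjusted p of 0.302. A difference in response between SS and NOX4 was thus not called for any of these 6 genes in edgeR, which does not show that they responded alike. Apart from Havcr1, which is also in the fixed set, they were named for their SS results, which favours larger changes in SS. The low-complexity outer medulla libraries were all in SS LS and SS HS7, and none was in NOX4. The fold changes of SS and NOX4 thus differ in library complexity as well as in strain.

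**Figure D5:**
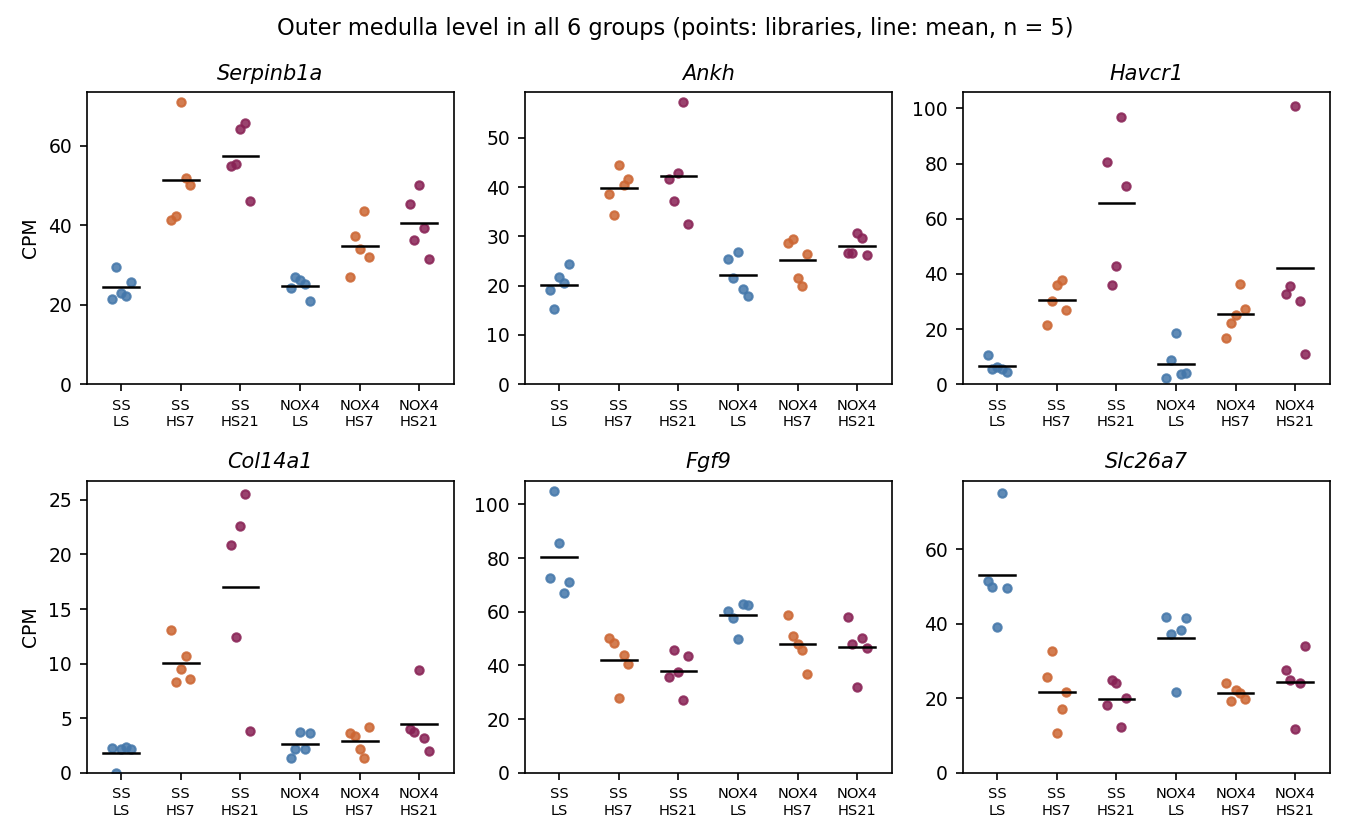
Level in CPM (linear axis from 0) of 6 genes in the 5 libraries of each outer medulla group, SS and NOX4 at LS (blue), HS7 (orange) and HS21 (purple), with a line at the mean. Ankh has group means of 20.2, 39.9 and 42.3 CPM in SS and 22.2, 25.2 and 28 CPM in NOX4, and the difference in response was not called. The low-complexity libraries are all in SS LS and SS HS7.

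At 21 days the SS means lay on the same side of LS for these 6 genes. They were 57.4 ± 7.9 CPM (SD, n = 5) for Serpinb1a, 42.3 ± 9.28 for Ankh, 65.6 ± 25.7 for Havcr1, 17 ± 8.86 for Col14a1, 37.9 ± 7.29 for Fgf9 and 19.9 ± 5.13 for Slc26a7. The comparisons of HS7 and of HS21 with LS share the LS libraries, and the HS21 group has no low-complexity library. The log2 fold changes against LS at HS7 and at HS21 were 1.08 and 1.24 for Serpinb1a, 0.98 and 1.06 for Ankh, and 2.23 and 3.34 for Havcr1. For AY172581.24 they were -0.97 and -0.99.

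In SS cortex the diet change at HS7 was set against that in outer medulla by an interaction test over all 60 libraries. Of 16326 genes, 893 (5.47%) were called, 630 with a larger log2 fold change in outer medulla and 263 with a smaller one. The 4 smallest p-values belonged to Ryr1, Cnn1, Gstp1 and Caps2. Ryr1 had 1.55 ± 0.27 in outer medulla and -0.78 ± 0.19 in cortex, a difference of 2.35 ± 0.32 (adjusted p = 2.59e-05 by edgeR). Gstp1, a glutathione transferase gene, had 0.46 ± 0.17 in outer medulla (not called) and -1.05 in cortex, with a difference of 1.53 (adjusted p = 0.000454). For Serpinb1a the outer medulla value exceeded the cortex value of 0.34 ± 0.12 by 0.76 ± 0.20 (adjusted p = 0.0222), and for Ankh that of 0.30 ± 0.13 by 0.70 ± 0.20 (adjusted p = 0.028). Slc26a7 had -0.22 in cortex, a difference of -1.07 ± 0.32 (adjusted p = 0.0387), whereas for Havcr1, with 1.47 in cortex, the difference of 0.78 ± 0.67 was not called (adjusted p = 0.549). Serpinb1a, Ankh and Slc26a7 were named for their calls in these same outer medulla libraries. That choice favours a larger change in outer medulla than in cortex, so these 3 differences are not separate support. By the same measure, SS cortex LS replicates 2, 3 and 4 and HS7 replicates 1 and 4 were of low complexity too (14099 to 15425 genes). The interaction count fell to 120 without HS7 outer medulla replicate 3. It was 0 without the 11 low-complexity libraries of both tissues, where 1230 genes had an unadjusted p under 0.05. Limma voom with quality weights called 1 gene.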

How the data were processed

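Poly(A) RNA libraries from snap-frozen tissue (per the labels' protocols) were processed with HISAT2 2.0.5, StringTie 1.3.3b and featureCounts 1.5.0-p3, per the submitters' processing notes. The deposited table, per the file headers, held raw counts per gene, FPKM values and the authors' comparisons as log2 fold changes with p-values and adjusted p-values. The genome build, the strand setting, the handling of reads shared between genes and the tool behind the authors' comparisons are not given in the sources used here. Of 32545 genes, 15799 passed filterByExpr by group. Counts were TMM-normalized and fitted over all 30 outer medulla libraries with edgeR 4.0.16 (R 4.3.3), quasi-likelihood F tests and Benjamini-Hochberg adjustment over all tested genes, with calls at an adjusted p under 0.05. An adjusted p with no other source named comes from this fit. The SE is the size of the log2 fold change divided by the square root of F. The tissue interaction used 60 libraries and 16326 genes. Alternatives used DESeq2 1.42.0, limma 3.58.1 (voom with quality weights), other filters, covariates and left-out libraries. List scores used log2 CPM with a prior count of 2. On simulated data of 15691 genes for this comparison, 22.4%, 50.7% and 78.1% of genes changed 1.5-fold, 2-fold and 4-fold were called. There were 7 calls among unchanged genes. Apart from the change put in, each gene had the same mean share of counts and the same dispersion in every library. Neither low-complexity libraries nor differences in tissue make-up were simulated, so the 7 calls do not measure the error rate of the real comparison.

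The members of the 48 gene lists were chosen with earlier results of these data known. Genes were named by rule: the 12 highest and 12 lowest log2 fold changes and the 6 smallest p-values among called genes with at least 1 CPM in either group and a given symbol, up to 4 called members per list, the 4 smallest p-values of each interaction, and a fixed set of transport, oxidant and injury genes. Genes named otherwise are said to have been chosen after their values were seen, and so were Pdgfrb, Rgs5 and Cspg4. Positions are as deposited. Results of some called list members are not reported here.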

Additional observations from a re-analysis of the deposited data

Results flagged for a closer look

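Of 276 groups of 5 values examined for a library far from the others (gap over range above 0.71), 27 stood out, 11 of them in HS7 replicate 3 and 5 in LS replicate 3. Chance exceeds this ratio in about 1 in 20 groups of normally distributed values, and levels near no count are not of that kind. HS7 replicate 3 had the lowest HS7 levels of Akr1b1 (26.3 CPM), Hmox1 (4.38 CPM), Htr2a (0 CPM), Lcn2 (19.4 CPM) and Mki67 (20.2 CPM), and the highest of Rad51c (11.5 CPM). Its scores were the lowest for thin limb (3.9), principal cell (4.41), macrophage and myeloid (4.68) and osmolyte genes (5.51), and the highest for podocyte genes (4.43). LS replicate 3 had the highest Lcn2 (81.7 CPM), the lowest Cyp2e1 (0.511 CPM), the highest scores for antigen presentation (5.33) and interferon-stimulated genes (5.75), and the lowest for glycolysis (6.98).

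LS replicate 1 alone stood high for Dmrtc1c1 (0.0524 CPM), Ildr2 (0.21 CPM), Oxtr (0.21 CPM), Reg3g (0.157 CPM) and Syce1 (0.157 CPM), all close to no count. LS replicate 2 was lowest for Col14a1 (0 CPM) and the fibroblast score (3.83), and LS replicate 5 for the intercalated cell score (4.72). At HS7, Nodal was highest in replicate 5 (0.128 CPM) and Tnn in replicate 2 (0.161 CPM), again with no count in any other HS7 library. Where all other libraries of a group have no count, the ratio is at its maximum whatever the level, so such flags were fixed by the zeros. The circadian clock score at HS7 was lowest in replicate 1 (4.64).

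The response to the diet differed between outer medulla and cortex of SS in 893 genes by edgeR's interaction test of all 60 libraries. The count was 120 without outer medulla HS7 replicate 3, 191 with the replicate number as a block and 1 in limma voom. It was 0 without the 11 low-complexity libraries of both tissues or with only the compared groups. The difference in log2 fold change (outer medulla minus cortex) was 2.35 for Ryr1, 10.37 for Cnn1, 1.53 for Gstp1 and 4.22 for Caps2, and the Cnn1 value depends on the prior count because no LS outer medulla library had a count.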

How the results depend on the processing

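The 374 calls became 397 with DESeq2 size factors, 267 without a filter, 361 with a filter of 1 CPM and 261 with low complexity as a covariate. They became 1434 with DESeq2's Wald test, 2 with limma voom and quality weights, 1 with only the compared groups in the fit, 90 with the S3 score and 32 with the S1 and S2 score as a covariate. The count was 0 without the low-complexity libraries, 1927 with only these compared, 5 without HS7 replicates 3 and 4, and 62 in the authors' deposited table. Leaving out 1 library gave 70 to 1456. The strain interaction, at 0, gave 13 in DESeq2 and 0 to 1 with 1 library left out, the 1 without LS replicate 1. The tissue interaction, at 893, gave 1392 in DESeq2 and 1 in limma voom. With the S3 and the S1 and S2 score it gave 22 and 79. It gave 0 with only the compared groups or without the 11 low-complexity libraries of both tissues. With 1 library left out it gave 120 to 1662, among them 505 without outer medulla LS replicate 3, 1576, 1662, 120 and 488 without outer medulla HS7 replicates 1, 2, 3 and 4, and 575 and 572 without cortex HS7 replicates 4 and 5. The labels do not say that replicate numbers pair the samples, and same-numbered LS and HS7 libraries had correlations of -0.16 to -0.07, and same-numbered outer medulla and cortex libraries -0.05 to 0.18. With the replicate number as a block the counts were 216, 1 and 191 for the diet change, the strain and the tissue interaction. Over 87 named genes and their alternatives, 1439 values kept direction and call, 607 lost the call, 18 gained it and 1 reversed: Echs1, at -0.14 without the low-complexity libraries. Apart from the fits that use fewer libraries, the cause of these shifts was not tested. Depth limits genes near 1 CPM most, and counts are not corrected for PCR copies.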

Other observations

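The list of matrix genes and the list of cell cycle genes changed their summary with the libraries used. Within the low-complexity libraries 18 of 49 matrix genes had a log2 fold change above 0 (median -0.12), and without them 46 of 49 did (median 0.40). For 33 cell cycle genes the counts above 0 were 23 (median 0.22) and 31 (median 0.51). Of all tested genes 8065 of 16154 and 8235 of 16417 were above 0 in these fits. No interferon-stimulated gene was called in either, with a median of -0.44 over 28 genes within the low-complexity libraries and 0.19 over 29 genes without them. Whether library complexity or tissue make-up bears on these shifts was not tested.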
